A study of Mus musculus with 10 samples.

Results

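The EGR, NAB and NR4A genes are 8 rows of the deposited table, chosen by gene symbol out of 17493 genes. They are 3 EGR zinc finger transcription factors (Egr1, Egr2 and Egr3), 2 NAB corepressors (Nab1 and Nab2) and 3 NR4A orphan nuclear receptors (Nr4a1, Nr4a2 and Nr4a3), and all 8 passed the filter on low values. They were measured by RNA sequencing in cultures of primary mouse T cells of the C57BL/6 strain, in 2 libraries labelled Th17_TMP269 and 2 control libraries labelled Th17_DMSO, whose columns are named WT. CD4+ T cells came from spleen, and naive cells of both groups were activated with antibodies to CD3 and CD28 and grown for 48 to 72 h with 2.5 ng/mL of TGF-beta and 20 ng/mL of IL-6. TMP269, which inhibits the class IIa enzymes of the histone deacetylase family (HDAC4, HDAC5, HDAC7 and HDAC9), was added before harvest. The sources used here give neither its dose nor how long the cells were exposed. The labels do not say whether the 2 libraries of a group came from separate animals or cultures, so a p-value here reflects the spread among these 4 libraries alone, part or all of which may be technical.

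EGR factors are immediate early genes, switched on in T cells within minutes to hours of receptor signals, largely through ERK and the serum response factor SRF, which binds the CArG box together with ELK partners. They bind GC-rich sites, and NAB1 and NAB2 attach to them and repress their targets. EGR2 and EGR3 are known in T cells for limiting activation and for genes of anergy. NR4A receptors are also induced by antigen receptor signals, through calcium, NFAT, CREB and MEF2 factors. In thymocytes, HDAC7 held by MEF2D represses Nr4a1, the gene for Nur77, until T cell receptor signals export HDAC7 from the nucleus. The comparison therefore asks how these genes stood in Th17 cultures in which the class IIa enzymes were inhibited.

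The promoters of the members that could be shown are given because their sequences differ in the sites that signals are known to use. No promoter window was used for Egr1 or Egr3. Windows of the other 6 of the 8 members came from the RefSeq promoter table (GRCm38.p6). The 250 bases before the listed start are printed 5′ to 3′ for 4 of them, at chr10:67537619-67537868 on the plus strand for Egr2, chr15:101266596-101266845 on the plus strand for Nr4a1, chr2:57124004-57124253 on the minus strand for Nr4a2 and chr4:48045055-48045304 on the plus strand for Nr4a3. Egr2 has 5 listed windows, and the one shown was chosen because it held matches. Capitals mark every match, on either strand, to the short CRE TGACG, the CRE-like element TGCGTCA, the EGR site GCGNGGGCG, the CArG box or the MEF2 site. Each TGCGTCA also holds a short CRE on its other strand.
Egr2 promoter: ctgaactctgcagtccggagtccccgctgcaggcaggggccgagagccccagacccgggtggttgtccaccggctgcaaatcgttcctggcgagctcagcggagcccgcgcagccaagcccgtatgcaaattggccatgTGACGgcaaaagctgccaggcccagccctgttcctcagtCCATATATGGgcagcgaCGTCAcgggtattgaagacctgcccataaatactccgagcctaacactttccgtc
Nr4a1 promoter: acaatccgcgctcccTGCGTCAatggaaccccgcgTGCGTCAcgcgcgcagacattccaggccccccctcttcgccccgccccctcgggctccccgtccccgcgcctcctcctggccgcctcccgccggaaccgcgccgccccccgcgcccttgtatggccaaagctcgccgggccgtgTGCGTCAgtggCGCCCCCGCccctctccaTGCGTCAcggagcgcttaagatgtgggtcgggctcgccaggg
Nr4a2 promoter: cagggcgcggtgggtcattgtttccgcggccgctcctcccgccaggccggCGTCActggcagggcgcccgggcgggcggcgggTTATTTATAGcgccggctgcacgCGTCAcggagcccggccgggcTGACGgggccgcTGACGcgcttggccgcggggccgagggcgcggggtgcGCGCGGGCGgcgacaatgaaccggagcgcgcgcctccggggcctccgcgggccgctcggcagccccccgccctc
Nr4a3 promoter: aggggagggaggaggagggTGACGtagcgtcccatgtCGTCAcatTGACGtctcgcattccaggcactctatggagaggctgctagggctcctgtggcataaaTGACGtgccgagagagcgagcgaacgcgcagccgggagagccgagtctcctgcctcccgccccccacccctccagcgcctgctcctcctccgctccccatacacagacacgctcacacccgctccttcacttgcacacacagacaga

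All 3 NR4A promoters held 4 short CREs each, the kind of site bound by CREB and ATF factors. A short CRE was present in 17.8% of all windows and a CRE-like element in 1.75%. At least 4 short CREs were found in 0.137% of the 32851 windows of this length in the table. The share was 0.370% of the 9178 windows with a GC content of at least 60%. In Nr4a1 all 4 lay in TGCGTCA elements, and no other window of the table held 4 of these. Nr4a1 and Nr4a2 each held 1 EGR site, found in 4.70% of all windows and 14.5% of those rich in GC. Nr4a2 held 1 MEF2 site (2.92% of all windows, 0.567% of those rich in GC). The Egr2 window, chosen among 5 because it held matches, held 1 CArG box between 2 short CREs. A CArG box was found in 1.47% of all windows and 0.937% of those rich in GC. These are shares of single windows not chosen for their matches. The Nab1 window held 3 EGR sites, a number reached in 0.140% of all windows and 0.501% of those rich in GC, and the Nab2 window held no match to any motif searched. No member window used here held a full CRE (TGACGTCA, 1.55% of windows), the AP-1 site TGANTCA (6.75%) or the NR4A response element AAAGGTCA (1.34%). The GC content of the 4 windows shown was 61.6% for Egr2, 74.4% for Nr4a1, 80.0% for Nr4a2 and 63.6% for Nr4a3, against a median of 52.4% over all windows. The minimum counts of 4 and 3 matches used for these shares equal the counts seen in the NR4A and Nab1 windows. Such shares therefore describe these windows and do not test whether they are unusual. A match describes letters in a window and is not evidence of binding.

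**Figure D1:**
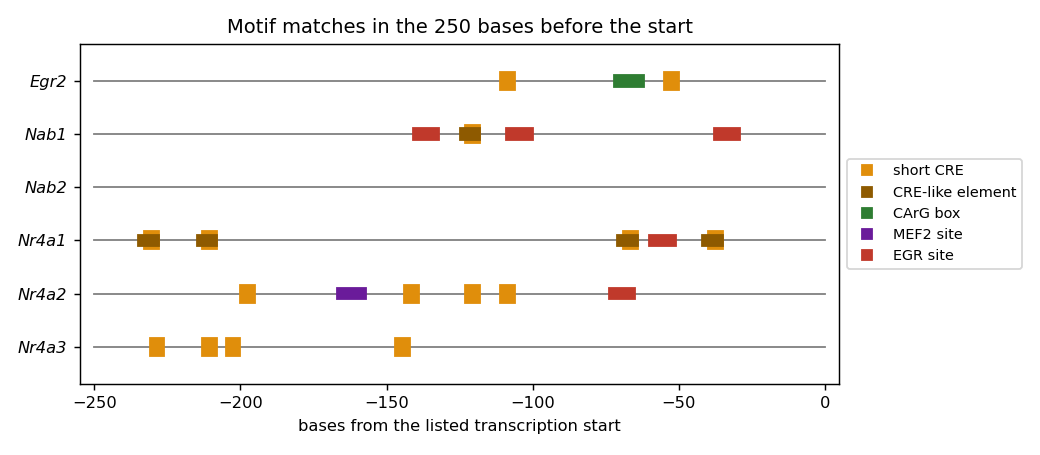
Matches to 5 motifs in the 250 bases before the listed start (x axis, bases from the start, 0 at the start). The 6 members with a window used are shown, 1 line per gene, with coloured boxes spanning each match. The 3 NR4A genes carry 4 short CREs each, those of Nr4a1 lie inside CRE-like elements, Egr2 carries the CArG box and Nab2 has no match.

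Total reads per library were 20837231 and 23259102 with TMP269, and 25321455 and 20007042 with DMSO. A member had between 139 reads (Nr4a2 in DMSO replicate 2) and 5267 reads (Nr4a1 in TMP269 replicate 2). The 6 T cell markers summed to 38210 and 40458 normalised reads with TMP269 and to 36508 and 41139 with DMSO, and 0 of 6 passed the test. Transcripts of 8 B cell markers were also present, at a sum of 2486 and 2490 with TMP269 against 4685 and 4786 with DMSO. Of these 8, 7 fell, with none at 0, where 14.7% of all tested genes fell. In bulk samples fewer cells of a type and less RNA per cell cannot be told apart, and the part of B lineage RNA in the results below was not tested. The 6 myeloid markers in the table summed to 82.7 and 105 with TMP269 and to 68.4 and 53.1 with DMSO, with 0 of 3 tested passing. NK markers summed to 22.7 and 26.6 with TMP269 against 80.1 and 109 with DMSO, almost all from Klrk1, which fell, while Ncr1 and Klrb1c stayed below 10 in every library. The 2 CD8 markers summed to 315 and 427 with TMP269 and to 299 and 391 with DMSO, and neither passed. Among the Th17 markers Il17a, Il17f and Ccr6 fell.

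With TMP269, 4 of the 8 genes rose and 0 fell. All 3 EGR genes rose (2.06-fold for Egr3, 1.99-fold for Egr1 and 1.51-fold for Egr2), Nr4a1 rose 1.403-fold, and Nr4a2, Nr4a3, Nab1 and Nab2 did not pass the test. Across all 12535 tested genes 12.8% were called higher and 14.7% lower (27.5% in either direction, limma on log2(value + 1), Benjamini-Hochberg adjusted p under 0.05). The median log2 fold change was 0.41 over the 8 members and 0.00 over all tested genes. The 2 TMP269 libraries lay outside the range of the 2 DMSO libraries for the same 4 members, and for 66.6% of all tested genes, with TMP269 the higher in 32.6%. An exact two-sided permutation test of 2 against 2 libraries cannot give a p below 0.333, and the calls depend on limma's pooling of variance over genes.

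**Figure D2:**
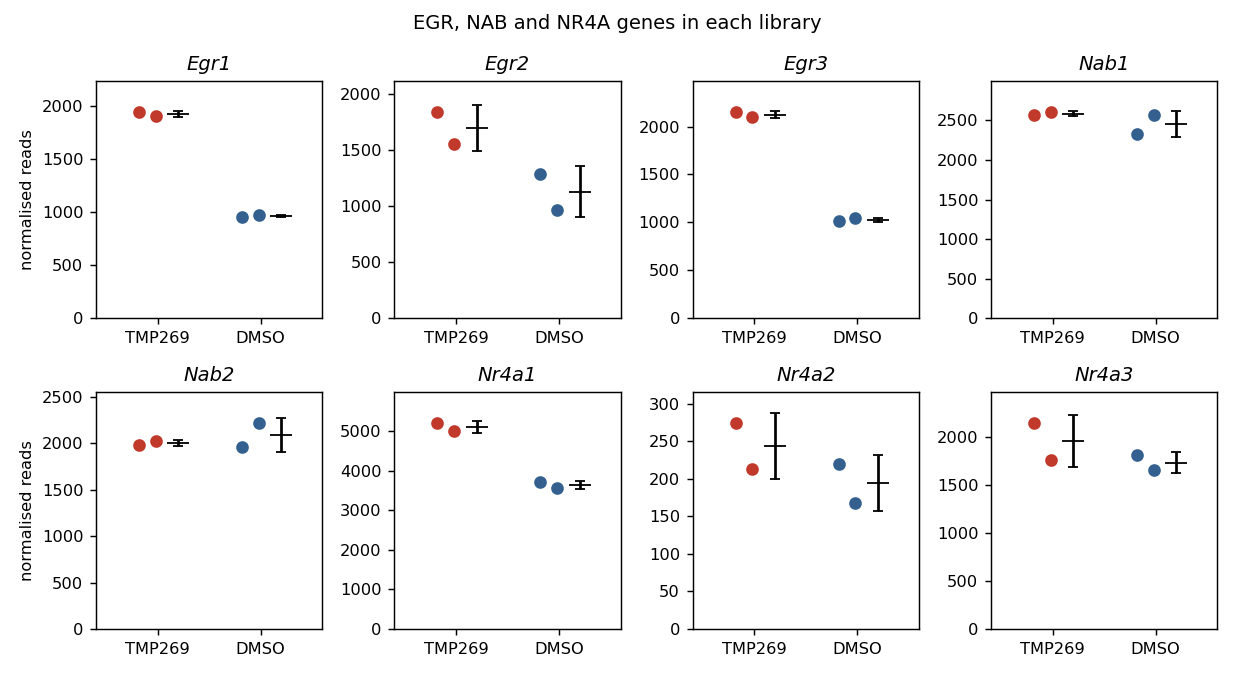
Normalised reads (y axis, from 0) of each of the 8 genes in the 2 TMP269 libraries (red) and the 2 DMSO libraries (blue), replicate 1 left of replicate 2, with the group mean and SD in black (n = 2 each). The groups are apart for Egr1, Egr2, Egr3 and Nr4a1 and overlap for the other 4 genes.

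Egr1, the immediate early factor most used as a readout of ERK signals, had 1943 and 1903 normalised reads in TMP269 replicates 1 and 2, against 958 and 973 in DMSO replicates 1 and 2. Both TMP269 libraries were thus higher than both DMSO libraries, and the libraries of a group differed by less than the counting error of their reads. The means were 1923 ± 28.1 with TMP269 and 966 ± 10.7 with DMSO (SD, n = 2 each), and the log2 fold change was 0.99 with an SE of 0.079 (1.99-fold, limma adjusted p = 1.65e-04). Of the 12535 tested genes, 428 had a larger log2 fold change. The value moved between 0.98 and 1.10 over the 14 alternatives and was called under each of them.

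Egr3, which acts with Egr2 in restraining T cell activation, had 2152 and 2096 normalised reads with TMP269, against 1015 and 1043 with DMSO. The lowest TMP269 library was 2.01 times the highest DMSO library. Its means of 2124 ± 39.5 with TMP269 and 1029 ± 20.1 with DMSO (SD, n = 2 each) gave a log2 fold change of 1.04 with an SE of 0.079 (2.06-fold, limma adjusted p = 1.53e-04). This was the largest change among the 8 members, with 377 tested genes above it. As with Egr1, replicates differed little, by 0.04 on the log2 scale within the TMP269 pair and -0.04 within the DMSO pair (replicate 1 minus 2).

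Egr2, known in T cells for anergy genes and in Schwann cells for myelin genes, had 1839 and 1554 normalised reads with TMP269, against 1289 and 967 with DMSO. The groups did not overlap, but the gap between the lower TMP269 library and the higher DMSO library was only 1.21-fold. Replicate 1 exceeded replicate 2 by 0.24 (log2) with TMP269 and by 0.41 with DMSO, where reads alone gave a counting SD of 0.05 and 0.06 for these differences. The means were 1696 ± 201 with TMP269 and 1128 ± 228 with DMSO (SD, n = 2 each), and the log2 fold change was 0.60 with an SE of 0.14 (1.51-fold, limma adjusted p = 0.0142). Without DMSO replicate 2 the log2 fold change was 0.39, still called at a limma adjusted p of 0.0479. Egr2 overlaps the lncRNA gene Gm32255, which was not analysed here, by 1712 bases in the reference annotation, so that without a known strand setting reads there could belong to either. A further EGR gene, Egr4, which is no member, was near the limit of detection, at 12.4 and 5.70 normalised reads with TMP269 and 3.60 and 13.3 with DMSO, and was not called (limma adjusted p = 0.825).

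The NAB corepressor genes were not called. Nab1 had 2566 and 2607 normalised reads with TMP269, against 2335 and 2570 with DMSO, so that the groups overlapped at DMSO replicate 2. Its log2 fold change was 0.078 ± 0.081 (SE, 95% interval -0.11 to 0.26, limma adjusted p = 0.4995). Nab2, itself a gene that EGR factors are known to induce, had 1987 and 2032 with TMP269, against 1963 and 2224 with DMSO. Both TMP269 values lay between the 2 DMSO values, and the log2 fold change was -0.057 ± 0.087 (SE, 95% interval -0.25 to 0.14, limma adjusted p = 0.656), or 0.047 with equal library totals. The upper bounds of both intervals lay below the lower bounds of Egr1 (0.81), Egr2 (0.28) and Egr3 (0.87) in the reported fit. For Nab1 and Egr2 the margin was narrow (0.262 against 0.283). Without DMSO replicate 2 the log2 fold change was 0.15 for Nab1 and 0.39 for Egr2. The difference between genes was not tested. Nab2 and its neighbour Stat6 overlap by 70 bases at their ends in the reference annotation, and the strand setting of the counting is not given in the sources used here, so reads there could belong to either gene. Stat6 was not called (6459 and 6150 normalised reads with TMP269, 6478 and 6399 with DMSO, limma adjusted p = 0.795).

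Among the receptors, Nr4a1 passed the test. Nr4a1, the Nur77 gene widely used to report T cell receptor signals, had 5214 and 5002 normalised reads with TMP269, against 3720 and 3564 with DMSO. All 4 values were close to their group mean, and the lower TMP269 library stood 1.34-fold above the higher DMSO library. The means were 5108 ± 149.9 with TMP269 and 3642 ± 110.0 with DMSO (SD, n = 2 each), and the log2 fold change was 0.49 with an SE of 0.076 (1.403-fold, limma adjusted p = 0.00286). It was called under all 14 alternatives, at values from 0.46 to 0.59.

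Nr4a2, the Nurr1 gene, best known for dopamine neurons, had few reads, with 275 and 213 normalised reads in TMP269 replicates 1 and 2, against 220.4 and 168 in DMSO replicates 1 and 2. DMSO replicate 1 lay above TMP269 replicate 2, so the groups overlapped. The log2 fold change was 0.33 ± 0.19 (SE, 95% interval -0.092 to 0.75, limma adjusted p = 0.214), an interval that includes both 0 and the value of Nr4a1. Nr4a3, the Nor1 gene, had 2153 and 1768 with TMP269, against 1813 and 1656 with DMSO. Here TMP269 replicate 2 fell between the DMSO libraries, and the log2 fold change was 0.17 ± 0.11 (SE, 95% interval -0.070 to 0.41, limma adjusted p = 0.259). The replicates of Nr4a3 differed by 0.28 (log2, replicate 1 minus 2) with TMP269 and 0.13 with DMSO, those of Nr4a1 by 0.06 in each group. With 1 library left out the log2 fold change of Nr4a2 lay between 0.13 (without DMSO replicate 2) and 0.53 (without DMSO replicate 1), and that of Nr4a3 between 0.029 (without TMP269 replicate 1) and 0.31 (without TMP269 replicate 2), none of them called. In the reference annotation Nr4a2 overlaps another protein-coding gene model by 670 bases.

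**Figure D3:**
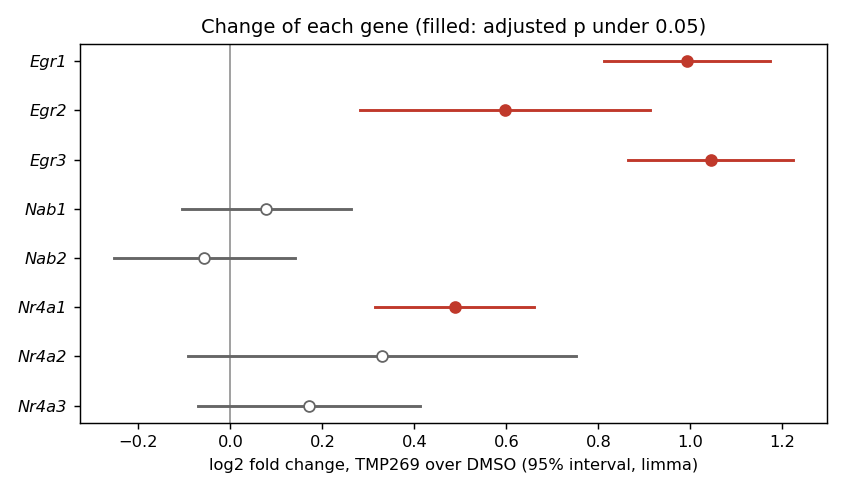
Log2 fold change of each of the 8 genes, TMP269 over DMSO (x axis), with the 95% interval of limma as a line; filled red points have an adjusted p under 0.05. Egr1 and Egr3 lie near 1, Egr2 at 0.60, Nr4a1 at 0.49, and the intervals of Nab1, Nab2, Nr4a2 and Nr4a3 include 0.

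Ratios of reads between members within a library do not depend on the scaling of libraries. Egr3 over Egr1 was 1.11 and 1.101 with TMP269, against 1.06 and 1.07 with DMSO, a log2 difference of 0.052 without overlap. Reads of Egr1 alone gave a counting SD of 0.046 (TMP269) and 0.067 (DMSO) for the log2 difference between replicates, so this difference is not set apart from sampling noise. Egr1 over Egr2 was 1.06 and 1.22 with TMP269, against 0.743 and 1.01 with DMSO, and Egr3 over Egr2 was 1.17 and 1.35 with TMP269, against 0.787 and 1.08 with DMSO. In both ratios the TMP269 libraries were the higher, with the nearest pair close together. Nr4a1 over Nr4a3 was 2.42 and 2.83 with TMP269, against 2.05 and 2.15 with DMSO, also without overlap. Nr4a1 over Nr4a2 overlapped between groups (19.0 and 23.5 with TMP269, 16.9 and 21.3 with DMSO). So did Nr4a2 over Nr4a3 (0.128 and 0.120 with TMP269, 0.122 and 0.101 with DMSO). Egr1 over Nr4a1 did not (0.373 and 0.380 with TMP269, 0.258 and 0.273 with DMSO). Reads of each EGR gene per read of Nab2 were higher with TMP269. Egr1 over Nab2 was 0.978 and 0.937 with TMP269, against 0.488 and 0.438 with DMSO. Egr3 over Nab2 was 1.08 and 1.03 with TMP269, against 0.517 and 0.469 with DMSO. Egr2 over Nab2 was 0.926 and 0.765 with TMP269, against 0.657 and 0.435 with DMSO. Nab2 over Nab1 was 0.774 and 0.779 with TMP269, against 0.841 and 0.865 with DMSO. These ratios are of reads, not of transcripts per length, and with 2 libraries per group an exact permutation test of any of the 11 ratios computed cannot pass the threshold. Groups without overlap have a p of 0.333 in that exact permutation test.

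The genes most like each family over the 4 libraries were found by the root mean square difference between centred log2 profiles, among 9896 other genes with a mean of at least 100 normalised reads. Closest to the mean EGR profile were Homer3, a scaffold protein gene (difference 0.024), Fam13b (0.024) and Ly75, the gene for the endocytic receptor DEC-205 (0.025). Homer3 had 490 and 437 normalised reads with TMP269, against 257 and 240.02 with DMSO, and Ly75 had 9636 and 8822 with TMP269, against 5018 and 4749 with DMSO. Fam13b had 806 and 783 with TMP269 against 458 and 415 with DMSO. All 3 were called higher, as a profile chosen for likeness to called genes would be. Closest to the mean NR4A profile were Cc2d1a (0.011), Caskin2 (0.016) and AB124611 (0.016), none of them called. Cc2d1a, the nearest, had 1253 and 1075 normalised reads with TMP269 against 1003 and 871 with DMSO.

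Other immediate early and related genes were taken from a list of 31 (AP-1 subunits, KLF factors, dual-specificity phosphatases and feedback genes), all of which could be tested. Of these, 15 rose and 2 fell, where 12.8% of all tested genes were called higher and 14.7% lower. Their median log2 fold change was 0.27, against 0.00 for all tested genes. The rises with the smallest p were those of Dusp2, a nuclear phosphatase of ERK, and Tnfaip3, the A20 inhibitor of NF-kappaB. Dusp2 stood at 2486 and 2724 normalised reads with TMP269, against 1550.3 and 1670.5 with DMSO (log2 fold change 0.69 ± 0.085, SE, limma adjusted p = 0.00109). Tnfaip3 stood at 6070.3 and 6161 with TMP269, against 4240 and 3989.9 with DMSO (0.57 ± 0.077, limma adjusted p = 0.00157). The 2 that fell were the survival gene Ier3 (593 and 790 with TMP269, 1011 and 1061 with DMSO, limma adjusted p = 0.0118) and Myc (6956 and 6774 with TMP269, 8590 and 8471 with DMSO, limma adjusted p = 0.0176). The Myc call was lost with equal library totals (0.0786, or 0.0623 leaving out Rn45s), without TMP269 replicate 1 (0.0877) and without TMP269 replicate 2 (0.124), so that 1 gene of the list fell without either library. Between 12 and 15 genes rose when any 1 library was left out.

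**Figure D4:**
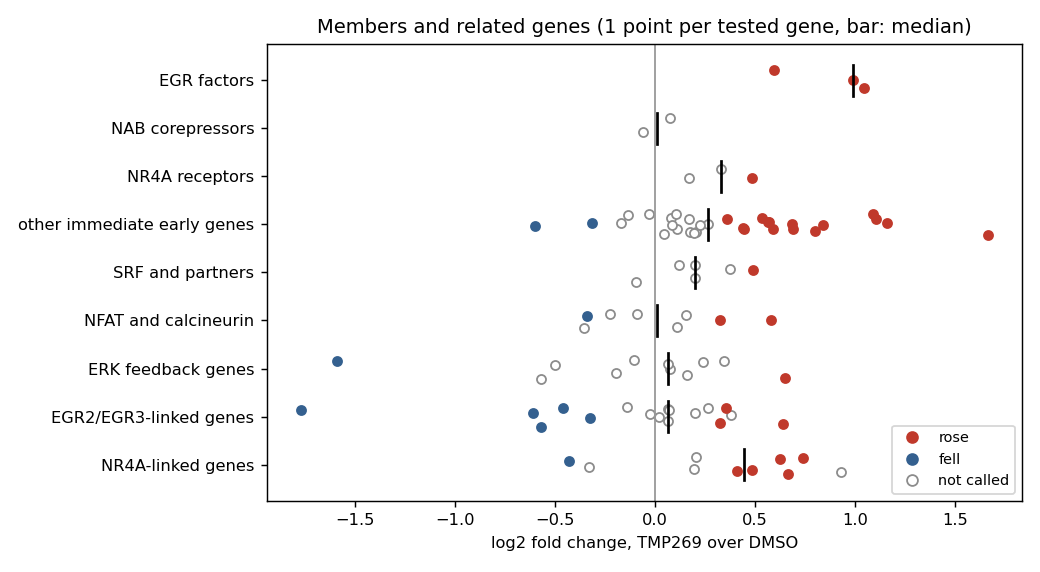
Log2 fold change, TMP269 over DMSO (x axis), of the 8 members by family and of the tested genes of 6 related lists (rows), 1 point per gene, red where called higher, blue where called lower, open where not called, with the list's median as a bar. The other immediate early genes have a median of 0.27 with 15 red points, and the EGR2 and EGR3 linked genes lie on both sides of 0.

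Genes of the pathways that feed the EGR promoters were taken from lists of SRF partners and of ERK feedback genes, to be read against the 12.8% of all tested genes called higher and 14.7% called lower. In the list of SRF and its partners, 1 of 6 genes rose and 0 fell. That gene was Elk4, a ternary complex factor, at 1313 and 1357 normalised reads with TMP269 against 906 and 996 with DMSO (limma adjusted p = 0.00511). Srf itself had 2089 and 1967 with TMP269, against 2049.7 and 2286 with DMSO, and was not called (limma adjusted p = 0.441). The count of risen genes was 3 with equal library totals and 2 without TMP269 replicate 1 or in edgeR. Among 11 ERK feedback genes 1 rose and 1 fell. Dusp6, the ERK phosphatase, had 567 and 406 with TMP269 against 350.01 and 265 with DMSO (limma adjusted p = 0.0306, but 0.129 without DMSO replicate 2 and 0.121 without TMP269 replicate 1). Spry2, a receptor kinase inhibitor, had 38.2 and 31.3 with TMP269 against 102 and 111 with DMSO (limma adjusted p = 0.00196). Without DMSO replicate 2 or TMP269 replicate 1, 0 of these genes rose, and 2 rose without DMSO replicate 1; 2 fell without TMP269 replicate 1.

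Of 8 NFAT and calcineurin genes, which carry calcium signals to the NR4A and EGR genes, 2 rose and 1 fell. Among all tested genes 12.8% rose and 14.7% fell. Nfatc1, itself a target of NFAT, had 4337 and 3943 normalised reads with TMP269, against 2833 and 2704 with DMSO (log2 fold change 0.58 ± 0.082, SE, limma adjusted p = 0.00188). Nfatc2 rose less (0.33 ± 0.078, limma adjusted p = 0.0158), and the catalytic subunit gene Ppp3cc fell by 0.34 (limma adjusted p = 0.0174). Leaving out either DMSO replicate 2 or TMP269 replicate 1 made the counts 1 and 0, since the calls of Nfatc2 (0.0635 and 0.128) and Ppp3cc (0.0593 and 0.124) were lost. With equal library totals 3 rose and 0 fell.

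In the list of MEF2 factors and class IIa deacetylases, 3 of 9 genes rose and 2 fell (12.8% and 14.7% of all tested genes). Mef2d, the factor tied to Nr4a1 in thymocytes, had 1479 and 1343 normalised reads with TMP269 against 1362 and 1371 with DMSO, and was not called (limma adjusted p = 0.729). Mef2a rose (1903 and 2052 with TMP269, 1439 and 1638 with DMSO, limma adjusted p = 0.0194). Mef2c, which B cells also express, fell to 113 and 117 with TMP269, against 425 and 437 with DMSO (log2 fold change -1.90 ± 0.13, SE, limma adjusted p = 1.27e-04), as did 7 of 8 B cell markers. Mef2b stood at 36.2 and 40.8 with TMP269 against 83.7 and 59.1 with DMSO (limma adjusted p = 0.0397). Hdac7 rose by 0.39 (log2, limma adjusted p = 0.0273) and Hdac5 by 0.25 (limma adjusted p = 0.0481). Hdac4 (0.747), Hdac9 (0.927) and the MEF2 corepressor gene Cabin1 (0.246) were not called. DESeq2 called 2 of the 9 genes higher and 1 lower, and with equal library totals 3 rose and 1 fell. When any 1 library was left out, 1 of the 9 genes rose, and 1 fell without DMSO replicate 1 or TMP269 replicate 1.

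Genes linked to EGR2 and EGR3 in T cells moved both ways. Of 18 listed genes, among them but not only genes of anergy and cell cycle restraint, 17 were tested, and 3 rose and 5 fell. Over all tested genes 12.8% rose and 14.7% fell. The median log2 fold change was 0.06 in the list against 0.00 for all tested genes. Cdkn1a, the p21 cell cycle inhibitor gene and a p53 target, had 10724 and 11968 normalised reads with TMP269, against 7331 and 7195 with DMSO (log2 fold change 0.64 ± 0.087, SE, limma adjusted p = 0.00163). Dgka, a diacylglycerol kinase gene of anergy, rose by 0.32 (log2, limma adjusted p = 0.0173), a call lost without DMSO replicate 2 (0.0904), TMP269 replicate 1 (0.0576) or TMP269 replicate 2 (0.0727). Ndrg1, another anergy gene, which also responds to hypoxia, had 2783 and 3091 with TMP269 against 4668 and 4042 with DMSO (-0.57 ± 0.095, limma adjusted p = 0.00389). Socs3, a cytokine signal inhibitor gene, fell by 0.46 (limma adjusted p = 0.00741, but 0.0526 without TMP269 replicate 1). The ubiquitin ligase gene Cblb, a reported EGR2 and EGR3 target, was not called (4824 and 4275 with TMP269, 4448 and 4240 with DMSO, limma adjusted p = 0.607). The list's counts of risen and fallen genes were 3 and 3 without DMSO replicate 1, 1 and 3 without the other DMSO library, 2 and 1 without TMP269 replicate 1, 2 and 5 without the other TMP269 library, and 5 and 2 with equal library totals.

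Among 10 genes linked to NR4A receptors in regulatory and exhausted T cells, 5 rose and 1 fell (12.8% and 14.7% of all tested genes). The list's median log2 fold change was 0.45. Ikzf2, the Helios gene of regulatory T cells, had 501 and 519 normalised reads with TMP269, against 346 and 315 with DMSO (log2 fold change 0.63 ± 0.11, SE, limma adjusted p = 0.00502). Tox, a factor of T cell exhaustion, had 342 and 337 with TMP269 against 190 and 241 with DMSO (0.66 ± 0.15, limma adjusted p = 0.0124). Ctla4, an inhibitory receptor gene, was the gene that fell (11793 and 12105 with TMP269, 15868 and 16331 with DMSO, limma adjusted p = 0.00717, but 0.0588 without TMP269 replicate 1). When DMSO replicate 2 or TMP269 replicate 1 was left out 3 genes rose, and 0 fell when it was TMP269 replicate 1.

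**Figure D5:**
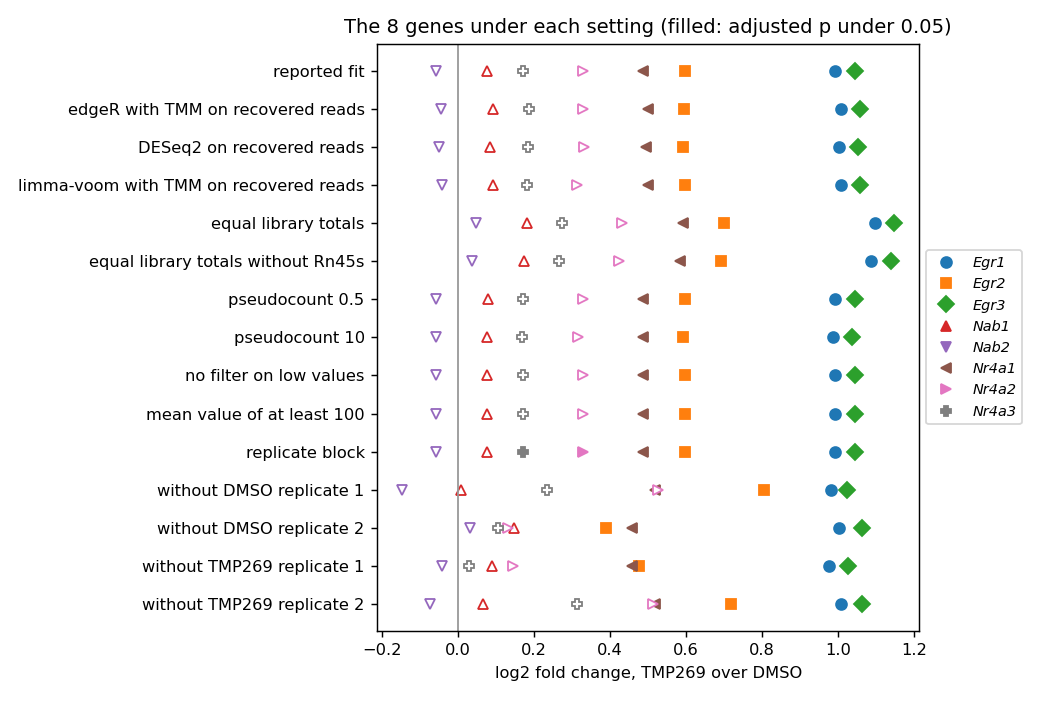
Log2 fold change, TMP269 over DMSO (x axis), of the 8 genes (symbols) in the reported fit and under the 14 alternatives (rows); filled symbols have an adjusted p under 0.05. Egr1, Egr2, Egr3 and Nr4a1 are filled in every row, and Nr4a2 and Nr4a3 only in the row of the replicate block.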

How the data were processed

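RNA was taken from the cultures, selected for polyadenylated transcripts and sequenced, per the labels' protocols. The deposited table holds a normalised signal: the values show that the authors divided each library's read counts by 1 size factor, since multiplying back gave whole reads for 100% of values within a tolerance of 0.001. The submitters' processing notes name CASAVA 1.4, Bowtie2, TopHat2 2.1.0, HTSeq, DESeq2 and the build mm9, with no role for each. Annotation and strand setting are not given in these sources, and no mm9 coordinates are printed.

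The test was limma 3.58.1 (R 4.3.3) with trended variances and no covariate, two-sided. It was applied to log2(value + 1) of genes that reached 10 in 2 or more libraries. A run on simulated data used 1 dispersion for all genes and independent libraries, so it does not test the calls made here. Fold changes of log2(value + 1) understate those of genes with low values. Calls were made at 0.05 after Benjamini-Hochberg adjustment over all 12535 genes. The members and lists were chosen with earlier results of these data known, so patterns already seen in them are no independent support. Within each list the text names up to 2 called genes that rose and 2 that fell, by smallest p, all genes of the MEF2 and deacetylase list, and the 3 genes most like each family; Srf, Cblb, Egr4, Stat6, Rxrb, Chd4, Cd5, Cd44, Il2ra, Irf4, Tnfrsf4 and the marker genes were named after their values were seen. Alternatives were edgeR 4.0.16, DESeq2 1.42.0 and limma-voom on the recovered reads (whole for 100% of values; edgeR called 3406 genes), other scalings, pseudocounts and filters, the replicate number as a block, and each library left out, with a remaining single library taken to vary as the other group does. The 6 chromatin immunoprecipitation and input libraries were not analysed here. Not every marker gene is reported here. Levels of different genes were not compared, as no transcript lengths were used. Replicates differed by more than sampling noise (chi-square per degree of freedom 9.37 in the TMP269 pair and 17.9 in the DMSO pair).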

Additional observations from a re-analysis of the deposited data

How the results depend on the processing

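Egr1, Egr2, Egr3 and Nr4a1 were called higher under all 14 alternatives, and 4 members were called under each of these except the replicate block, which called 6. The adjusted p of Egr2 ranged from 1.10e-07 to 0.0479 and that of Nr4a1 from 1.80e-07 to 0.00971. The number of all genes called was between 2078 and 3675 with 1 library left out, lowest without DMSO replicate 2, with 2287 without TMP269 replicate 1, and it was 6360 with the replicate block. Same-numbered libraries deviated together across genes (r = 0.371), but with 2 pairs and no label that ties them, the numbers are not shown to pair the samples. In the block fit Nr4a2 (adjusted p = 0.0257) and Nr4a3 (0.0222) were also called. TMP269 over DMSO was 1.25 and 1.27 for Nr4a2 and 1.19 and 1.07 for Nr4a3 within numbers 1 and 2. Of values that were not called, the log2 fold change of Nab2 turned to 0.047 with equal library totals and 0.039 with these totals without Rn45s, and lay between -0.15 and 0.033 with 1 library left out (positive without DMSO replicate 2). That of Hdac9 turned to 0.054 and 0.046 with the same scalings and lay between -0.22 and 0.13 with 1 library left out. With 1 library left out Hdac4 lay between -0.014 and 0.098 and Mef2d between -0.025 and 0.11, both lowest without TMP269 replicate 1. The causes were not tested. The share of calls that were higher was 46.5% in the reported fit and 67.3% with equal library totals, where the median over all genes was 0.10 (log2). Depth limits Nr4a2 most, with 139 to 266 reads per library.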

Other observations

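Other markers of T cell activation did not all move as the EGR genes did. Of 8 such genes, 4 rose and 1 fell, against 12.8% and 14.7% of all tested genes. Cd69, an early activation antigen, had 4016 and 3970.1 normalised reads with TMP269, against 1984 and 2056 with DMSO (log2 fold change 0.98 ± 0.075, SE, limma adjusted p = 1.53e-04). Il2, the T cell growth factor gene, had 2103 and 2236 with TMP269, against 559.7 and 731 with DMSO (limma adjusted p = 1.27e-04). Cd5 and Cd44 were the other genes of this list that rose. Icos, a costimulatory receptor gene, had 5511 and 8289 with TMP269, against 11988 and 15083 with DMSO (limma adjusted p = 0.00503). Il2ra, Irf4 and Tnfrsf4 were not called (limma adjusted p = 0.418, 0.548 and 0.867).

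Of 4 genes for protein partners, 3 were tested and 1 rose, where 12.8% of all tested genes rose. Rxra, which encodes a retinoid X receptor that pairs with NR4A1 and NR4A2, had 2773 and 2559.6 normalised reads with TMP269, against 1869.7 and 2036 with DMSO (log2 fold change 0.45 ± 0.085, SE, limma adjusted p = 0.00595). Rxrb (limma adjusted p = 0.536) and Chd4, a remodeller bound by NAB2 (limma adjusted p = 0.778), were not called.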
